A study of Caenorhabditis elegans with 12 samples.

Results

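The genes described here are the 300 most heavily targeted of the genes that the tables of small RNA counts label ALG, together with 2 kinds of small RNA counted at each of them, called siRNA and 26G. A gene was eligible if its class label held ALG and neither ERGO nor WAGO and if it was not a major sperm protein (msp) gene, which left 1079 of the 19320 genes with an siRNA or 26G entry. The 300 with the highest summed siRNA and 26G level in the control libraries of the depletion experiment were taken, so levels in those 2 libraries chose the members and are given as a description. The summed control level ran from 225 normalised counts at the highest gene to 23.7 at dct-9, ranked 300, and the gene just outside, B0379.7, was also at 23.7. Normalised counts are the deposited reads per gene divided by a constant of each library and scaled per 1000000.

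In C. elegans, 26G siRNAs are primary small RNAs that the RNA-dependent RNA polymerase RRF-3 makes on mRNA templates together with Dicer (DCR-1) and the ERI proteins. The Argonautes ALG-3 and ALG-4 carry those of the sperm-producing germ line, and ERGO-1 carries those of the oogenic germ line and embryo. Both kinds lead to abundant secondary 22G siRNAs, made by RRF-1 and EGO-1 and bound by WAGO Argonautes or by CSR-1. CSR-1 is known for binding siRNAs against most genes expressed in the germ line without silencing them. The tables do not define the lengths behind siRNA and 26G or how the labels ALG and CSR were given, so these names are used as they stand.

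Small RNAs were sequenced from whole adult animals grown at 20 °C, in 7 groups and 12 libraries. ATTF-6 depletion animals carried GFP::tev::aid::attf-6, in which the AT-hook protein ATTF-6 bears an auxin-inducible degron, and wrdSi51, which expresses the TIR1 degradation factor from the germline mex-5 promoter, and their controls carried wrdSi51 alone. Both were placed on 4 mM auxin from the L4 stage, with 2 libraries each treated with the polyphosphatase PIR-1 and 1 library each treated with phosphatase and then pyrophosphatase (CIP-TAP). The peak1 deletion strain lacks chromosome IV 13709294 to 13709476 and the peak2 deletion strain lacks chromosome IV 14387943 to 14388536, both of them ATTF-6 binding sites (positions as the labels give them, with no build named), and both carry attf-6::3xflag, as does the deletion control. These 3 groups received no auxin and have 2 PIR-1 libraries each. The labels do not say whether libraries of a group came from separate cultures. The paper describes its piRNA levels in ATTF-6 depletion and control as coming from 2 biological replicates. The p-values here measure the spread between libraries only.

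The tables of PIR-1 libraries held 15454600 to 31931300 summed counts each, and a level of 3 counts, taken as the floor, equals 0.382 to 0.751 normalised counts in them. The summed level of the germline and embryo miRNAs miR-35-3p to miR-41-3p, all 7 of them present, was 16155 and 10904 normalised counts in ATTF-6 depletion, against 99948 and 96713 in control. The somatic miRNA let-7-5p was at 16984 and 19892 in ATTF-6 depletion, against 14749 and 12172 in control. Germline and embryo marker RNA was therefore lower in every depleted library. In whole animals these miRNAs cannot tell apart fewer germ cells, fewer embryos and less RNA per cell. By imaging, the paper saw germline atrophy when ATTF-6 was depleted from the L4 stage. The part of such differences in tissue in the changes below was not tested.

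The 300 genes fell into 2 sets by a label that the rule had not used. A CSR label was also present at 79 of them, or 26.3%, against 2.95% of the 779 eligible genes outside the 300. The rule took genes with the most siRNA and 26G, so a larger share of a label with high siRNA is favoured by the choice. In control animals siRNA was the main species at these 79 genes, with a median of 42.3 normalised counts per gene, and 26G had a median of 3.68. At the other 221 genes the order was turned round, with a median of 6.95 for siRNA and 26.2 for 26G. 26G made up over 50% of the summed level at 1 of the 79 CSR-labelled members, atp-4, and at 188 of the 221 others.

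**Figure D1:**
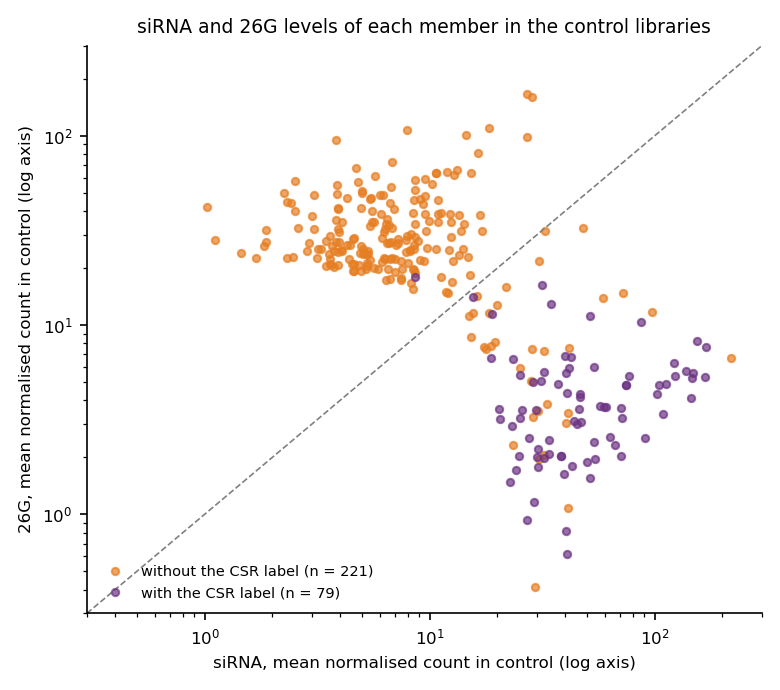
Mean level of siRNA (x axis) and of 26G (y axis) at each of the 300 members over the 2 control libraries of the depletion experiment, in normalised counts on log axes, with members that carry the CSR label (79) and those that do not (221) in 2 colours and a dashed line of equal levels. Members without the CSR label mostly lie above the line and CSR-labelled members below it; the empty lower left corner is set by the choice of members on the summed level.

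Per kilobase of exon, which allows levels of different genes to be compared, CSR-labelled members had a median of 35.3 normalised counts of siRNA and 2.76 of 26G, and the other members 6.90 of siRNA and 27.4 of 26G. The gene model behind these lengths is the WBcel235 annotation, which covered all 300. The germline labels followed the same division. Of the 221 members without the CSR label, 194 are labelled Spermatogenic and 12 Gender_neutral, whereas of the 79 with it, 7 are Spermatogenic and 62 Gender_neutral. In all, 67.0% of the members are labelled Spermatogenic, against 13.3% of all genes with siRNA or 26G entries. That contrast is with all genes, so it does not tell these members from the other eligible ALG-labelled genes.

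None of the 300 members lies on chromosome X, which holds 13.6% of all these genes and 7.37% of the Spermatogenic genes outside the 300. Chromosome I holds 26.7% of the members and 15.0% of all these genes, and chromosome V holds 13.3% of the members and 23.3% of all these genes. These shares also do not tell the members from the other eligible ALG-labelled genes. All but 2 members are protein-coding, and the other 2 are pseudogenes.

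The highest siRNA level of all members was at C54G4.7 (chromosome I, 8019501 to 8022734), which has the labels ALG and PRG1. It was followed by toc-1, by pab-1, which encodes a poly(A)-binding protein, by nra-2, a homologue of nicalin, and by nhr-23, a nuclear receptor needed for moulting and for spermatogenesis. C54G4.7 averaged 218 normalised counts of siRNA in control and the other 4, all CSR-labelled, came below it, with toc-1 at 169 and nra-2 at 154. The 26G of these 5 genes made up 2.98% to 5.07% of the control level. The highest 26G levels were at B0205.10 (chromosome I, 10708373 to 10710378), spch-1, which encodes a sperm chromatin protein, T16G12.7, clec-123, which encodes a protein with a C-type lectin domain, and F10G7.12. These 5 had control means of 101 to 167 normalised counts of 26G, which was 84.8% to 93.1% of their control level. The most extreme shares, singled out after the values were seen, were 97.6% 26G at spch-2, another sperm chromatin gene, and 1.40% at slc-25A32, which encodes a mitochondrial carrier.

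The paper sequenced small RNAs after ATTF-6 depletion to ask about piRNAs, and the same libraries are read here for siRNA and 26G. The siRNAs of CSR-labelled members were lower in both depleted libraries, whereas the ranges of siRNA and of 26G at the other members overlapped with those of control. Summed siRNA over the 79 CSR-labelled members was 1806 and 1344 normalised counts in ATTF-6 depletion, against 4757 and 4246 in control, which is 2.86-fold lower. Summed siRNA over the other 221 was 2906 and 2417 in ATTF-6 depletion, against 2729 and 2479 in control, and those ranges overlap. Summed 26G over these 221 was 7292 and 7340 in ATTF-6 depletion, against 6665 and 7305 in control, also overlapping. The CSR-labelled members had 429 and 407 normalised counts of 26G in ATTF-6 depletion, against 356 and 370 in control, 1.15-fold higher on average, with both depleted libraries above both controls.

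**Figure D2:**
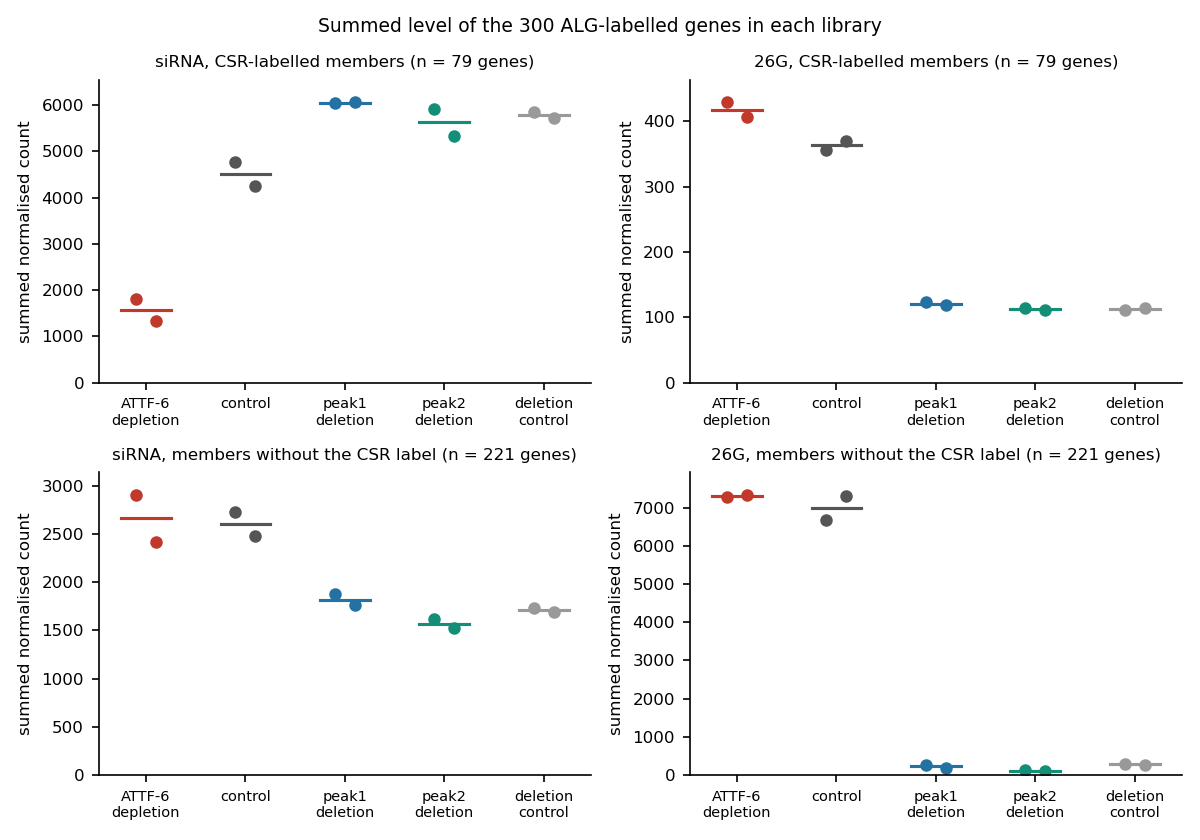
Summed normalised counts (y axis, from 0) of siRNA (left panels) and 26G (right panels) over the CSR-labelled members (top) and the other members (bottom), 1 point per library and a bar at the mean of the 2 libraries, for ATTF-6 depletion, its control, the peak1 deletion, the peak2 deletion and the deletion control. The siRNA of CSR-labelled members is lowest in ATTF-6 depletion (1806 and 1344), and the 26G of the other members is far lower in all 3 groups of the deletion experiment (109 to 299) than in ATTF-6 depletion and its control (6665 to 7340).

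Each siRNA and 26G entry was tested with edgeR's quasi-likelihood test, adjusted over all 33715 features kept. At an adjusted p under 0.05, siRNA was lower at 101 and higher at 48 of the 300 members in ATTF-6 depletion, beside 56.0% lower and 10.8% higher among all siRNA entries tested. By label, 70 of the 79 CSR-labelled members were lower and 1 was higher (smo-1, which encodes the modifier SUMO), with a median log2 change of -1.68. Among the other 221 members 31 were lower and 47 higher, with a median of 0.14. 26G was lower at 41 and higher at 50 of the 300, beside 26.6% lower and 11.8% higher among all 26G entries tested. The median log2 change of 26G was -0.02 at CSR-labelled members and 0.08 at the others, and that of all 26G entries was -0.43. With TMM scaling siRNA was lower at 40 and higher at 8 CSR-labelled members, and lower at 8 and higher at 168 of the others. With DESeq2 it was lower at 32 and higher at 6 CSR-labelled members, and lower at 6 and higher at 112 of the others. 26G with TMM was lower at 1 and higher at 46 CSR-labelled members, and lower at 4 and higher at 190 of the others. Shares of all entries called with TMM or DESeq2 are not given, so those counts do not tell the members from other entries. Because the controls of this comparison chose the members, these counts are a description. Without control replicate 1 the 26G counts were 24 lower and 21 higher, and without control replicate 2 they were 22 lower and 27 higher.

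The depletion contrast was also read in 300 genes chosen in the same way on the 2 deletion control libraries, which share 182 members with the list. Of these, 101 carry the CSR label, and their siRNA fell at 83 and rose at 1 in ATTF-6 depletion. Among the other 199 it fell at 47 and rose at 46, beside 56.0% lower and 10.8% higher among all siRNA entries tested. 26G fell at 27 and rose at 66 of the 298 that could be tested, beside 26.6% and 11.8% of all 26G entries. Of the 66, 53 lacked the CSR label. With TMM the siRNA counts became 43 lower and 15 higher with the label, and 14 lower and 135 higher without it. The 26G counts with TMM were 3 lower and 221 higher. With DESeq2 the siRNA counts were 33 lower and 11 higher with the label, and 9 lower and 101 higher without it. The depleted and control libraries are the same in both readings. Of the CSR-labelled genes outside the 300, siRNA fell at 3570 and rose at 39 of 3885, with a median log2 change of -1.78.

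The split between higher and lower depends on how the libraries are scaled. The median log2 change of all features was -1.39 with the authors' constant and -0.26 with edgeR's TMM scaling. With TMM, siRNA was lower at 48 and higher at 176 members, and 26G was lower at 5 and higher at 236. Without the shares of all entries under TMM, these counts are not a trait of the members. The log2 change in the summed siRNA of CSR-labelled members was -1.52 with the authors' constant and -0.37 with TMM, lower in both. That in the summed 26G of the other members was 0.07 with the authors' constant and 1.23 with TMM. A change of scaling moves all features by nearly the same amount, so changes can also be read relative to the median of all features. On that scale, with the authors' constant, the median siRNA change was -0.29 at CSR-labelled members and 1.53 at the others, and the median 26G change was 1.37 at CSR-labelled members and 1.47 at the others.

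With the authors' constant, the calls for siRNA and 26G at single genes mostly did not coincide. Of the 101 members with lower siRNA, 17 also had lower 26G, 16 had higher 26G and 68 had neither. Of the 48 with higher siRNA, 4 had lower 26G, 7 had higher 26G and 37 had neither. Among all 300 members, whatever their siRNA call, 26G was lower at 41 and higher at 50. With TMM, siRNA was higher at 176 and 26G at 236 of the 300, so many members were then higher for both. Across the 300 members the log2 changes of the 2 species had a Pearson r of 0.09 and a Spearman rho of 0.05. At CSR-labelled members r was 0.34 and rho 0.33, and at the others r was 0.0048 and rho -0.04. These are descriptions over genes that share the same 4 libraries.

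**Figure D3:**
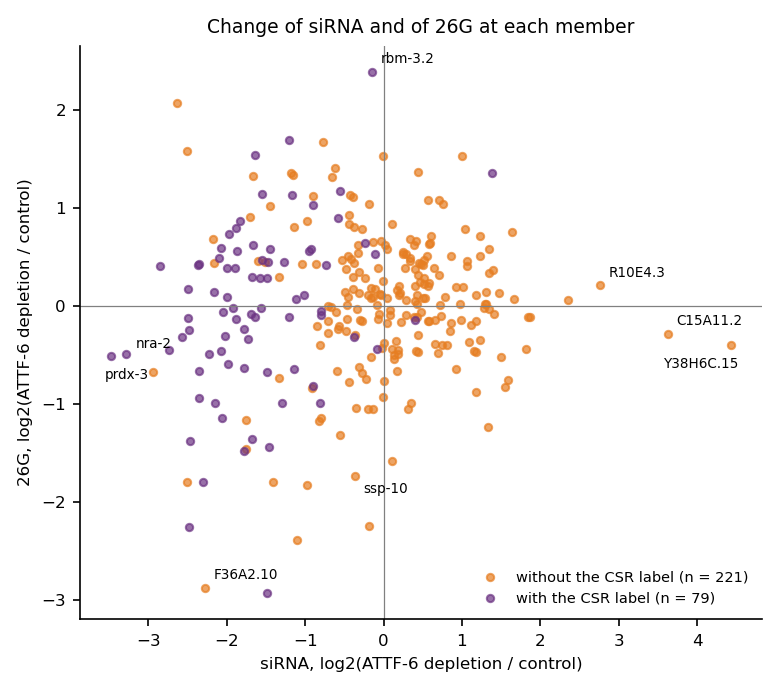
Log2 change between ATTF-6 depletion and control of siRNA (x axis) and of 26G (y axis) at each of the 300 members, by CSR label, with some of the genes described in the text named. CSR-labelled members spread to the left of 0 on the siRNA axis (median -1.68) and lie around 0 on the 26G axis (median -0.02), and Y38H6C.15 and C15A11.2 lie far to the right, at -0.40 and -0.28 on the 26G axis.

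Among members with a level of at least 10, siRNA was lowest relative to control at prdx-3, which encodes a mitochondrial peroxiredoxin, nra-2, mev-1, which encodes a subunit of succinate dehydrogenase, gpcp-2, and ubc-18, which encodes a ubiquitin-conjugating enzyme. All but mev-1 carry the CSR label. prdx-3 had 5.37 and 4.36 normalised counts of siRNA in ATTF-6 depletion, against 61.7 and 46.5 in control (log2 change -3.47 ± 0.24, SE). nra-2 (chromosome I, 9620227 to 9622377) had 16.9 and 14.5 in ATTF-6 depletion, against 162 and 147 in control (-3.29 ± 0.13). Genes were picked for showing no overlap between the groups, and the other 3 had log2 changes of -2.94 to -2.74. The siRNA of prdx-3 and nra-2 was lower under every scaling tried. 26G at nra-2 was 6.61 and 4.84 in ATTF-6 depletion, against 7.25 and 9.21 in control, and did not pass the threshold.

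siRNA was highest relative to control at Y38H6C.15, C15A11.2, R10E4.3, AH6.3 and Y57G11C.8, none with the CSR label and 4 of them labelled Spermatogenic. Y38H6C.15 (chromosome V, 20534746 to 20536308) had 92.9 and 73.3 normalised counts of siRNA in ATTF-6 depletion, against 3.69 and 4.05 in control (4.43 ± 0.18). C15A11.2 (chromosome I, 7384398 to 7388795) had 112 and 101 in ATTF-6 depletion, against 8.65 and 8.54 in control (3.63 ± 0.07). The depleted libraries were far above control at both genes, while 26G did not pass the threshold at either. With TMM and with DESeq2, 26G passed as higher at both, with TMM log2 changes of 0.76 at Y38H6C.15 and 0.88 at C15A11.2. 26G at Y38H6C.15 was 36.6 and 37.8 in ATTF-6 depletion, against 51.0 and 47.0 in control. 26G at C15A11.2 was 22.7 and 24.9 in ATTF-6 depletion, against 27.1 and 31.0 in control. The species that was the minor one at these genes in control was thus the major one in depleted animals. In R10E4.3 siRNA was the larger species in both groups. R10E4.3, which also has the PRG1 label, had 240 and 178 of siRNA in ATTF-6 depletion, against 31.8 and 29.7 in control (2.76 ± 0.22).

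**Figure D4:**
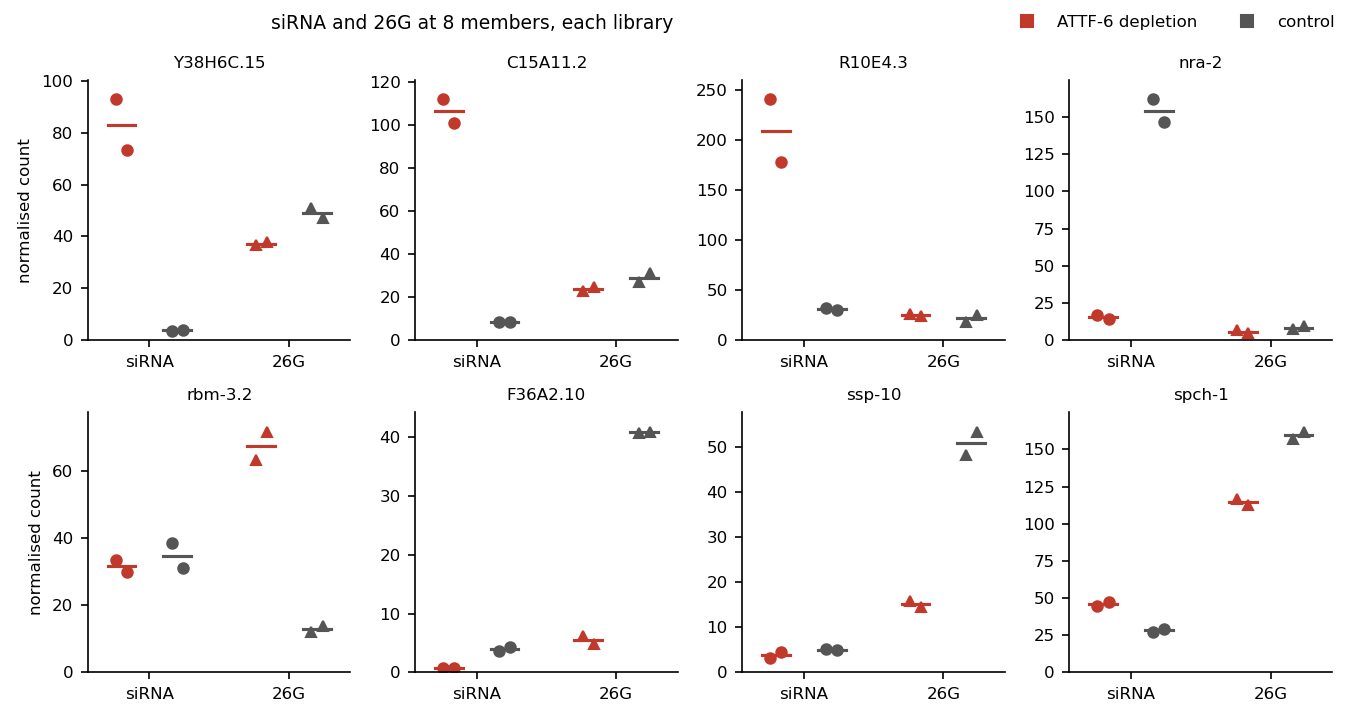
Normalised counts (y axis, from 0, a scale of its own in each panel) of siRNA (circles) and 26G (triangles) in the 2 ATTF-6 depletion and 2 control libraries at 8 members, with a bar at each mean. siRNA stands far higher in ATTF-6 depletion at Y38H6C.15, C15A11.2 and R10E4.3 and far lower at nra-2, and 26G stands higher at rbm-3.2 and lower at F36A2.10 and ssp-10. At spch-1 26G was 117 and 112 in ATTF-6 depletion, against 157 and 162 in control, and did not pass the threshold, but it passed as higher with TMM (0.68) and DESeq2 (0.60) and as lower when scaled to miRNA reads (-0.68).

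Among members with a level of at least 10, 26G was highest relative to control at rbm-3.2, which encodes an RNA-binding protein and carries the CSR label. It had 63.2 and 71.7 normalised counts of 26G in ATTF-6 depletion, against 12.1 and 13.7 in control (2.39 ± 0.13). Its siRNA overlapped, at 33.5 and 29.8 in ATTF-6 depletion and 38.4 and 31.0 in control. With TMM and with DESeq2 its siRNA passed as higher, with log2 changes of 1.01 and 0.94. The next for 26G were Y46H3D.1, F35E2.5, Y113G7C.1 and T06D8.9, with log2 changes of 1.41 to 1.67. These 5 were also picked for showing no overlap, and their 26G was higher under every scaling tried. 26G was lowest relative to control at F36A2.10, F52F12.8, ttm-1, which encodes a zinc transporter, ZK596.2 and ssp-10, of a sperm-specific gene family. These 5 had log2 changes of -2.87 to -1.74 and were below 0 under every scaling tried, but ttm-1 lost its call with TMM and ttm-1, ZK596.2 and ssp-10 lost theirs with DESeq2. F36A2.10 (chromosome I, 8819499 to 8820103) had 6.20 and 4.84 of 26G in ATTF-6 depletion, against 40.7 and 40.9 in control (-2.87 ± 0.16). Its siRNA was lower as well, at 0.826 and 0.726 in ATTF-6 depletion against 3.56 and 4.27 in control, a call lost with TMM and DESeq2. These depleted values are just above and at the floors of their libraries (0.620 and 0.726).

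The ratio of 26G to siRNA within a library does not depend on how libraries are scaled, apart from the 0.5 added to each level. It was tested with limma on the log2 scale over 10284 genes. The ratio rose at 79 and fell at 33 of the 300 members in ATTF-6 depletion, beside 33.5% that rose and 3.98% that fell among all genes tested. Of the 79 that rose, 54 carry the CSR label, and none of the 33 that fell does. Without control replicate 1 it rose at 46 and fell at 12, and without control replicate 2 it fell at 10. In the genes chosen on the deletion controls it rose at 103 and fell at 26 of 300. The median log2 change in the ratio was 1.59 at CSR-labelled members, -0.13 at the other members and 0.75 over all genes tested.

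The ratio rose most at slc-25A32, at nep-13, which encodes a neprilysin-like peptidase, at gpcp-2, at let-767, which encodes a steroid dehydrogenase, and at tspo-1, a translocator protein homologue, with log2 changes of 2.83 to 3.85. At nep-13, which is labelled Spermatogenic, siRNA was 6.82 and 7.50 in ATTF-6 depletion, against 42.6 and 38.2 in control, and 26G was 9.09 and 8.47 in ATTF-6 depletion, against 2.29 and 3.82 in control. Both species changed at nep-13, in opposite directions under every scaling tried. The control 26G of slc-25A32 was 0.382 and 0.449, at or under the floor of 3 counts. The ratio fell most at Y38H6C.15, C15A11.2, R10E4.3, B0261.6 and E03H12.5, with log2 changes of -4.64 to -2.33. At B0261.6 siRNA was 20.0 and 15.5 in ATTF-6 depletion, against 7.25 and 6.74 in control, and 26G was 9.29 and 9.68 in ATTF-6 depletion, against 22.0 and 22.7 in control. The 26G call at B0261.6 was lost with TMM and DESeq2.

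Genes named for sperm functions are mostly eligible genes outside the 300. Of 27 genes of the small sperm protein families in the tables, 24 were eligible and 4 were members, namely ssp-16, ssp-10, ssp-34 and ssq-2. siRNA passed the threshold at none of these 4. 26G was lower at ssp-10, ssp-34 and ssq-2, with log2 changes of -1.74 ± 0.10, -1.04 ± 0.24 and -0.66 ± 0.10, but with TMM scaling ssp-34 and ssq-2 were at 0.10 and 0.49 and ssp-10, at -0.59, was still below 0. 26G at ssp-16, with a log2 change of -0.15 ± 0.10, did not pass. With TMM, 26G passed as higher at ssp-16, and siRNA passed as higher at ssp-16, ssp-34 and ssq-2. ssp-10 had 15.9 and 14.5 of 26G in ATTF-6 depletion, against 48.4 and 53.5 in control. Of 26 spe and fer genes, 16 were eligible and 1, spe-19, which is needed for sperm activation, was a member. Of 40 phosphatase and kinase genes on the list, 13 were eligible and 1, the tau-tubulin kinase family gene ttbk-4, was a member, and no cytoskeletal gene of 31 was. spe-19 and ttbk-4 passed the threshold for neither species with the authors' constant, and both passed as higher for both species with TMM. Some genes of the small sperm protein families may be alike in sequence, and sharing of reads between them was not tested.

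The genes of the 26G and 22G pathway are themselves siRNA targets. Of 14 such genes, siRNA was lower at 10 and higher at 2, eri-3 and eri-5, which encode ERI complex proteins, beside the 56.0% lower and 10.8% higher of all siRNA entries and the 3570 of 3885 lower among CSR-labelled genes outside the 300. The call of mut-16 was lost with TMM and DESeq2, and that of eri-3 when scaled to miRNA reads. 26G was lower at 6 and higher at 1, eri-3, beside 26.6% and 11.8% of all 26G entries. Some of the 6 rest on few reads. In ATTF-6 depletion eri-1 had 0.620 and 0.484, at or under the floor. rde-4 and rrf-1 were under it in 1 depleted library each, and rrf-3, ego-1 and csr-1 in neither. With TMM all of the 6 but rde-4 lost the call, csr-1 turning to 0.08, and with DESeq2 all 6 did, while eri-3 lost its call when scaled to miRNA reads. Of the 14 only alg-3 was a member. It had 13.4 and 10.9 normalised counts of siRNA in ATTF-6 depletion, against 16.4 and 17.8 in control, and 40.5 and 41.6 of 26G in ATTF-6 depletion, against 31.3 and 31.7 in control, and passed the threshold for neither. alg-4, eligible but outside the 300, did not pass either. With TMM both genes passed as higher for both species, with alg-3 at 0.67 for siRNA and 1.54 for 26G, and with DESeq2 both passed for 26G. siRNA at rrf-3 was 44.2 and 33.6 in ATTF-6 depletion, against 186 and 144 in control (-2.08 ± 0.27). siRNA at csr-1 was 117 and 75.2 in ATTF-6 depletion, against 657 and 585 in control (-2.68 ± 0.33). All of the 14 but alg-3 and alg-4 carry the CSR label.

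The CIP-TAP libraries, 1 per group, allow no test. The paper used this treatment to clone capped small RNAs, so the sums below are not a repeat of the PIR-1 measurement. Summed siRNA over the CSR-labelled members was 1914 normalised counts in the ATTF-6 depletion library (95% Poisson interval 1870 to 1958), against 5995 in the control library (5928 to 6063). Over the other members it was 2325 in the ATTF-6 depletion library (2277 to 2374), against 2321 in the control library (2279 to 2363). The siRNA intervals lay apart at the CSR-labelled members and overlapped at the others. Summed 26G over the members without the CSR label was 1787 in the ATTF-6 depletion library (1744 to 1830), against 1470 in the control library (1437 to 1504). Over the CSR-labelled members it was 416 in the ATTF-6 depletion library, against 410 in the control library, and their intervals overlap. These intervals cover counting error only.

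The binding-site deletions addressed whether losing a single ATTF-6 site changes the small RNAs, in libraries that took no part in choosing the members. Summed siRNA of the members was 7913 and 7816 normalised counts in the peak1 deletion and 7524 and 6858 in the peak2 deletion, against 7580 and 7416 in the deletion control. Peak1 deletion libraries lay above both controls, but only by 1.05-fold (exact two-sided permutation test, p = 0.333, n = 2 against 2). The peak2 deletion libraries overlapped with them (exact permutation p = 0.667). The smallest p that 2 libraries a group allow is 0.333. For siRNA, 237 of the 300 members passed the filter on low levels. siRNA was called at 1 of them in the peak1 deletion, beside 0.337% of all siRNA entries tested, and at 1 in the peak2 deletion, beside 0.617%. At an unadjusted p under 0.05 there were 9 in the peak1 deletion, beside 5.06% of all siRNA entries, and 11 in the peak2 deletion, beside 8.1%.

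The 1 member called in the peak1 deletion was F13H8.8 (chromosome II, 6265609 to 6268083), with 51.1 and 60.3 normalised counts of siRNA in the peak1 deletion, against 27.7 and 23.8 in the deletion control (log2 change 1.11, edgeR adjusted p = 0.0479). Its siRNA in the peak2 deletion was 25.1 and 24.6. The call was lost when scaled to miRNA reads and without either library of the peak2 deletion or of the deletion control. The 1 member called in the peak2 deletion was tag-344 (chromosome I, 10644245 to 10645617), with 1.34 and 1.53 in the peak2 deletion, against 11.4 ± 0.858 in the deletion control (SD, n = 2; log2 change -2.96 ± 0.10, edgeR adjusted p = 0.00536). In the peak1 deletion it had 16.2 and 15.3. This call was lost without either library of the peak2 deletion or of the deletion control. Where such a fit leaves 1 library in a compared group, a lost call does not by itself show a smaller change. Both genes lie outside chromosome IV, which carries the deleted sites.

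26G of the members without the CSR label was lower in the peak2 deletion as a sum, while no single gene passed the adjusted threshold. Their summed 26G was 258 and 189 normalised counts in the peak1 deletion and 127 and 109 in the peak2 deletion, against 299 and 262 in the deletion control. The peak2 deletion libraries lay below every other library of the experiment, 2.38-fold below the control mean, and the peak1 deletion libraries lay below both controls, 1.25-fold below the mean (exact permutation p = 0.333 for each). Summed 26G of CSR-labelled members was 123 and 120 in the peak1 deletion and 114 and 112 in the peak2 deletion, against 112 and 115 in the deletion control. Summed 26G of the 37 ERGO-labelled genes was 4389 and 4401 in the peak1 deletion and 4284 and 4576 in the peak2 deletion, against 3329 and 4423 in the deletion control. In both of these sets the peak2 deletion overlapped with the deletion control. The eligible ALG-labelled genes outside the 300 had 195 and 149 in the peak1 deletion and 101 and 92.4 in the peak2 deletion, against 244 and 200 in the deletion control, which is the same order as in the members without the CSR label.

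**Figure D5:**
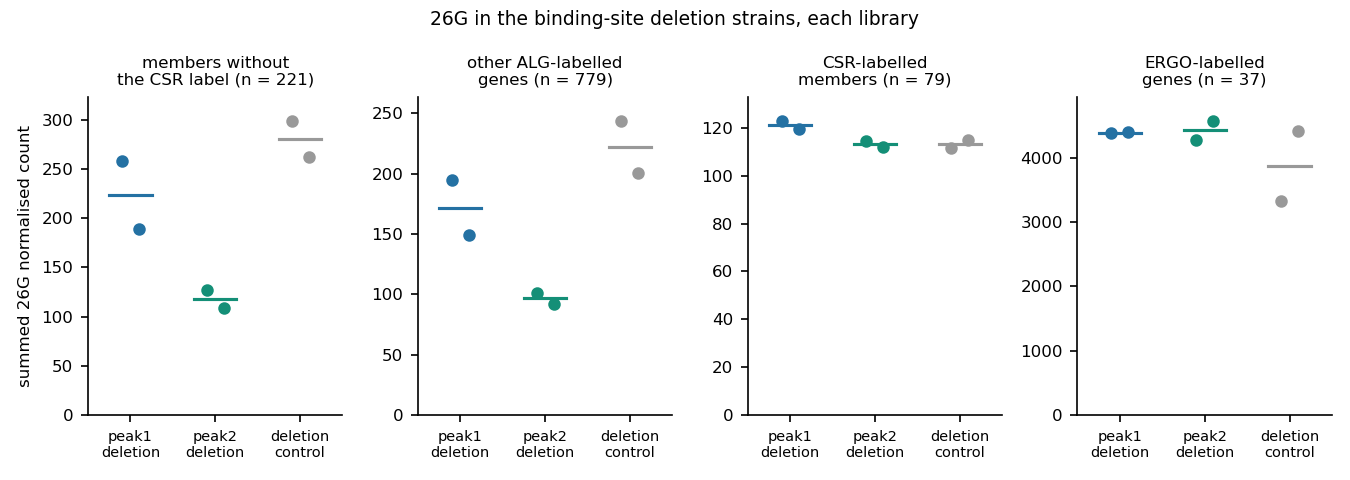
Summed 26G in normalised counts (y axis, from 0, a scale of its own in each panel) in the 2 libraries each of the peak1 deletion, the peak2 deletion and the deletion control, with a bar at each mean, for members without the CSR label (221), the other eligible ALG-labelled genes (779), CSR-labelled members (79) and ERGO-labelled genes (37). Both peak2 deletion libraries lie below all others in the first 2 panels (127 and 109 against 299 and 262 in the members without the CSR label), and they overlap with the deletion control in the last 2.

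By edgeR, 0 of the 237 members that could be tested for 26G were called in the peak1 deletion, beside 0.0% of all 26G entries tested, and 0 in the peak2 deletion, beside 0.0502%. At an unadjusted p under 0.05, 54 members were lower in the peak2 deletion, beside 3.56% of all 26G entries tested, and 1 was higher, and in the peak1 deletion 7 were lower, beside 1.64%. The filter takes the mean over all 6 libraries, so a member low in the peak2 deletion can pass only through the other groups, and these counts are no support for a lower level. DESeq2 called 0 members for 26G in either deletion, and without either library of the peak1 deletion edgeR called 4 in the peak2 deletion. T16G12.7 had the smallest unadjusted p of the members, with 1.12 and 1.31 normalised counts of 26G in the peak2 deletion, against 5.11 and 5.01 in the deletion control (-2.03 ± 0.08, edgeR adjusted p = 0.113). Its deletion control values are several times the floor, but its peak2 deletion values lie nearer the floors of their libraries (0.672 and 0.654). Of the 300 members, 64 had 3 counts or fewer of 26G in both deletion controls. The ratio of 26G to siRNA was tested at 183 members and called at 0 in the peak1 deletion and 0 in the peak2 deletion, beside 0.0% of all genes tested in each, with 19 at an unadjusted p under 0.05 in the peak1 deletion, beside 5.43% of all genes tested, and 31 in the peak2 deletion, beside 6.02%. Germline and embryo miRNAs miR-35-3p to miR-41-3p summed to 145168 and 206491 in the peak1 deletion and 167974 and 155587 in the peak2 deletion, against 147179 and 188775 in the deletion control, so their ranges overlapped.

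The level of 26G at these genes differed far more between the experiments than within either. Members without the CSR label had 6665 and 7305 summed normalised counts of 26G in the control of the depletion experiment, against 299 and 262 in the deletion control, a 24.9-fold difference. Both controls are given as a description, since the first chose the members. Of these 221 genes, 218 had lower 26G in both deletion control libraries than in both controls of the depletion experiment. The share of all genes with this order is not given, and the choice of members favours it. Summed 26G over all genes with siRNA or 26G entries was 1.23-fold higher in the control of the depletion experiment than in the deletion control. In the list chosen on the deletion controls, the difference at genes without the CSR label was 18.3-fold, in the same direction. The 779 eligible genes outside the 300, which the rule left out for a lower level, had 5288 and 5824 in the control of the depletion experiment, against 244 and 200 in the deletion control. Summed siRNA at the members without the CSR label was 2729 and 2479 in the control of the depletion experiment, against 1732 and 1694 in the deletion control, a 1.52-fold difference. ERGO-labelled genes ran the other way, with 1913 and 2102 of 26G in the control of the depletion experiment, against 3329 and 4423 in the deletion control. Strain, auxin and experiment differ together between these controls and cannot be told apart.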

How the data were processed

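Small RNA reads were trimmed by the authors with Trim Galore, aligned with Bowtie to the WormBase genome without mismatches and assigned to features with BEDTools. The deposited estimated counts per gene and feature are partly fractional and were rounded for the tests. The deposited normalised signal is the count divided by 1 constant per library, which the authors describe as total mapped reads, and scaled per 1000000. The listed counts sum to more than that constant, so what it holds was not settled. How overlapping genes or strands were handled for siRNA entries is not given in the sources used here. Members and lists were chosen with earlier results of these data known.

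Counts were tested with edgeR 4.0.16 (quasi-likelihood, R 4.3.3) with that constant as library size, keeping features whose mean was 0.5 normalised counts or more, and Benjamini-Hochberg adjustment over all of them at 0.05. The depletion fit held 4 PIR-1 libraries and the deletion fit 6. The ratio of 26G to siRNA was tested with limma 3.58.1 on log2 levels with 0.5 added, for genes with a mean summed level of at least 2. The SE of a log2 change was computed from the spread of log2 levels between libraries, with 0.5 added. Sums were compared with an exact permutation test. The scripts were tested on simulated data, where edgeR recovered 198 of 200 entries changed 4-fold in the depletion design and 191 of 200 in the peak1 deletion. The limma ratio test recovered 67 of 112 and 58 of 108. Only entries with a mean of at least 5 normalised counts were changed, with 1 fixed spread for all. Members had a median of 1.00 normalised counts of 26G in the deletion control, so these recoveries do not cover such levels. Named genes were the 5 highest members of each species, members of the sperm, kinase and cytoskeleton lists, and, for each species, the 5 largest changes in each direction past the threshold (3 for the deletions) with a mean of at least 10 in the higher group and no overlap, the 5 largest ratio changes in each direction, the genes ranked 300 and 301, and 14 pathway genes. Positions come from the WBcel235 annotation, release 115. Alternatives were TMM scaling, scaling to miRNA reads, DESeq2 1.42.0, other filters and pseudocounts, a replicate block, each library left out in turn, and members chosen on the deletion controls. Python 3.11.15 with pandas 2.3.3 was used for summaries.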

Additional observations from a re-analysis of the deposited data

How the results depend on the processing

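Among the 300 genes in ATTF-6 depletion, siRNA was lower at 101 and higher at 48. TMM scaling gave 48 and 176, and DESeq2 gave 38 and 118. Shares of all entries under these 2 scalings are not given. 26G was lower at 41 and higher at 50. TMM gave 5 and 236, DESeq2 2 and 186, and scaling to miRNA reads 25 higher. Genes chosen on the deletion controls gave 27 lower. Leaving out 1 library at a time gave 22 to 43 lower and 21 to 48 higher. The 26G to siRNA ratio was lower at 33, at 18 with 0.25 added, at 52 with 2 added, and at 10 to 32 with 1 library left out. It was higher at 79, and at 46 to 83 with 1 library left out. The log2 change in summed siRNA was -0.75, but 0.40 with TMM and -0.95 when scaled to miRNA reads. That of summed 26G was 0.07, 1.23 with TMM, -0.13 when scaled to miRNA reads, 0.20 in genes chosen on the deletion controls, and 0.011 to 0.14 with 1 library left out. For members without the CSR label, a split added after the data were seen, summed 26G was at 0.07, 1.23 with TMM and -0.14 when scaled to miRNA reads. The cause of these shifts was not tested.

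In the peak1 deletion the 1 siRNA call became 0 when scaled to miRNA reads or with a filter of 2, and 2 with DESeq2 or no filter, with 0 to 1 when 1 library was left out. The ratio had 2 calls with 2 added. In the peak2 deletion the 1 siRNA call became 2 with no filter and 0 to 1 with 1 library left out. 26G had 0 calls, 2 when scaled to miRNA reads, 7 with no filter and 0 to 4 with 1 library left out, and the ratio had 1 call with 2 added. Summed siRNA was at 0.07 on the log2 scale in the peak1 deletion and 0.11 with TMM. In the peak2 deletion it was at -0.06, 0.056 with TMM and -0.25 when scaled to miRNA reads. Summed 26G in the peak2 deletion was at -0.77, -0.65 with TMM and -0.96 when scaled to miRNA reads.

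The labels give no shared batch to equal replicate numbers, and deviations of same-numbered libraries correlated at 0.14 in the depletion experiment and at -0.05 to 0.00 in the deletion experiment. With a replicate block, siRNA was lower at 108 and higher at 50 members in ATTF-6 depletion and 26G lower at 51 and higher at 67, and the 1 siRNA call of the peak1 deletion became 0. In the deletion experiment a level of 3 counts or fewer at 64 members limits what 26G can show.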

Other observations

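The 779 eligible ALG-labelled genes outside the 300, which were left out for their lower level in these controls, had 5327 and 4444 summed normalised counts of siRNA in ATTF-6 depletion, against 3048 and 2699 in control. By edgeR, siRNA was higher at 253 and lower at 52 of the 747 that could be tested, with a median log2 change of 0.60, beside 10.8% higher and 56.0% lower among all siRNA entries. Their summed 26G was 7151 and 7259 in ATTF-6 depletion, against 5288 and 5824 in control, and 26G was higher at 211 and lower at 59 of 751, beside 11.8% and 26.6% of all 26G entries. Since a low level in these controls placed the genes in this set, higher levels in ATTF-6 depletion are favoured by the choice and are a description. Both sums did not overlap between the groups. The 20 ALG-labelled msp genes, which encode major sperm proteins, had summed 26G of 46.9 and 49.1 in ATTF-6 depletion, against 35.4 and 39.6 in control. Their summed siRNA averaged 18.2 ± 3.16 in ATTF-6 depletion and 8.14 ± 1.98 in control (SD, n = 2 each). These genes are near-identical copies, so reads could be shared among them.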
